A study of Mus musculus with 6 samples.

Results

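The klotho, phosphate and vitamin D axis is described here by 10 genes in the mouse kidney, taken by gene symbol from a table of 55450 genes. They are the co-receptor gene Kl, the receptor genes Fgfr1 and Pth1r, the sodium phosphate transporter genes Slc34a1, Slc34a3, Slc20a1 and Slc20a2, the vitamin D enzyme genes Cyp27b1 and Cyp24a1, and the nuclear receptor gene Vdr. All 10 had enough counts to be tested.

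Kidney mRNA was sequenced from male wild-type C57BL/6J mice, bought at 7 weeks of age and housed for 1 week before the experiment. The day-0 group, the control, held 3 mice that are labelled as given 20% PEG, and the day-21 group held 3 mice that received adenine at 0.16 g/kg with potassium oxonate at 2.4 g/kg by daily gavage for 21 days. Oxonate blocks the breakdown of uric acid, and adenine is converted to a product that forms crystals in the tubules. The study kept 6 mice per group, of which 3 per group are analysed here, and how long the vehicle was given is not stated in the sources used here. No PEG is stated for the day-21 mice. Each group was killed at its own day, so the day-21 mice were also older. Age, and any difference in gavage or vehicle, cannot be told apart from the treatment.

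Phosphate and vitamin D are kept in balance by a loop between bone, parathyroid gland and kidney. Bone makes FGF23, which acts on the kidney through an FGF receptor bound to the membrane protein klotho. The parathyroid gland makes PTH, which acts through the PTH receptor. Both hormones lower the amount of sodium phosphate transporter in the brush border of the proximal tubule, so that more phosphate is excreted. They act in opposite directions on the vitamin D enzymes: PTH raises CYP27B1, which makes the active hormone calcitriol, and FGF23 lowers it and raises CYP24A1, which inactivates calcitriol. Loss of kidney klotho is a known feature of chronic kidney disease.

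Depth lay between 10963849 and 14333311 counts per mouse, where 3 counts, the smallest level taken as visible, correspond to between 0.179 and 0.309 normalized CPM (read counts relative to the TMM-scaled size of the library). The floor covers counting error only. Of the 16592 genes tested with edgeR, 35.1% were called, meaning that the adjusted p was below 0.05 and the fold exceeded 1.5, with 19.6% higher and 15.5% lower on day 21. In 57.1% of them the 2 groups of 3 mice did not overlap. Scaling by library size alone in place of TMM moved these calls from 3249 higher and 2572 lower to 5985 higher and 1338 lower, and shifted the median over all tested genes, on the log2 scale, from 0.03 to 0.42. The day-21 libraries also differed in cell type markers. All 12 proximal tubule markers were called lower, and their summed level was 15801 to 17632 CPM on day 0 and 4119 to 5299 CPM on day 21. Lower calls were also made for 3 of 4 thick ascending limb markers, 2 of 4 principal cell markers and 4 of 5 distal convoluted and connecting tubule markers, with the fifth, Trpv5, called higher. For intercalated cells, podocytes and endothelium the number was 3 of 5 each. Called higher were all 6 fibroblast, all 7 macrophage (150.0 to 188.8 CPM summed on day 0, 798 to 1098 on day 21) and all 6 T cell markers. Of 3 neutrophil markers with enough counts 1 was higher and 2 were lower, and among 5 urothelial markers 1 was higher. As a check of the tissue, 5 liver genes, some of them also kidney genes, gave 4 lower calls, and none of 5 bone genes had enough counts to be tested. In bulk tissue, fewer cells of a type and less RNA per cell cannot be told apart.

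Promoters of the members with the largest called changes are shown first, so that the genes can be read beside their sequence. They come from RefSeq on GRCm38.p6, cover 250 bases before to 50 after the transcription start, and run 5′ to 3′ on the strand of the gene. Capitals mark a CCAAT box on either strand. Cyp27b1 was called higher on day 21, and the other 3 were called lower. The windows are chr10:127047996-127048295 (+) for Cyp27b1, chr5:150952357-150952656 (+) for Kl, chr13:55399398-55399697 (+) for Slc34a1 and chr2:25234185-25234484 (-) for Slc34a3.
Cyp27b1: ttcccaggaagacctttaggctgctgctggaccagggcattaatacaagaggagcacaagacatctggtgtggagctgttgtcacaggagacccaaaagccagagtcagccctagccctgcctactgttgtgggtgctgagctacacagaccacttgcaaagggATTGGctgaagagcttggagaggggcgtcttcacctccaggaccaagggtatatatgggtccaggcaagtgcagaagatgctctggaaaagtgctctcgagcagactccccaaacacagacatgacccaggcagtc
Kl: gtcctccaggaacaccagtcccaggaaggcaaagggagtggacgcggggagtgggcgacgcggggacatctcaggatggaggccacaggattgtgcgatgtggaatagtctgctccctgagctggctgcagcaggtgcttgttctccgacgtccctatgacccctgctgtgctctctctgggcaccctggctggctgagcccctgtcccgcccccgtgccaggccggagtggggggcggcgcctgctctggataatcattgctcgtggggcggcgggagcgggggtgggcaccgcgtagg
Slc34a1: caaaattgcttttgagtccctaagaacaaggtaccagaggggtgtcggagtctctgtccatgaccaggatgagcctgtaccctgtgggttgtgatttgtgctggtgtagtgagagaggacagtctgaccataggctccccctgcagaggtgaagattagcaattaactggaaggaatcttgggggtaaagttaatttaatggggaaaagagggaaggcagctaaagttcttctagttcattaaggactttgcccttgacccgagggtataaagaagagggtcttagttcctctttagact
Slc34a3: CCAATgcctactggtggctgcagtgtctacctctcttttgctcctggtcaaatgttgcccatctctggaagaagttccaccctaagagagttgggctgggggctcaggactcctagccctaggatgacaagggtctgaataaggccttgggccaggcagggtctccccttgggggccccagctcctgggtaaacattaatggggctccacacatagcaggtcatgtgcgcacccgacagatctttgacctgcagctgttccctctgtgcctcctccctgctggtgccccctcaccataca

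In these windows the CCAAT box of Cyp27b1 is on the reverse strand, from -86 to -82 relative to the start, and that of Slc34a3 is at the far edge, from -250 to -246. Kl and Slc34a1 hold none. A CCAAT on either strand is present in 37.4% of the 32851 mouse promoters of this length. The cAMP response element core TGACG, present in 20.8% of all promoters, is in none of the 4 windows. Among the member windows not printed, it is in promoter 1 of Pth1r and in promoters 1 and 2 of Slc20a1. A search on both strands for the DR3 vitamin D response element, 2 hexamers in the same orientation with 3 bases between them, found it in 0.256% of all promoters and in none of the 10 windows that belong to 7 of the members. The table has no entry for Cyp24a1, Fgfr1 or Slc20a2. Such a match of letters is a description of the window and not of a bound site.

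At the mRNA level, 6 of the 10 genes (60.0%) were called, against 35.1% of all genes tested. In detail, 5 were lower on day 21, against 15.5% of all genes, and 1 was higher, against 19.6%. The 5 lower genes were Kl, Slc34a1, Slc34a3, Vdr and Pth1r, and the higher gene was Cyp27b1. The median log2 fold change over the 10 was -0.59, beside 0.03 over all genes tested. In 8 of the 10 the groups did not overlap, beside 57.1% of all genes. For each of these 8 genes the exact permutation p, two-sided, was 0.1, the smallest that 3 mice per group allow.

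**Figure D1:**
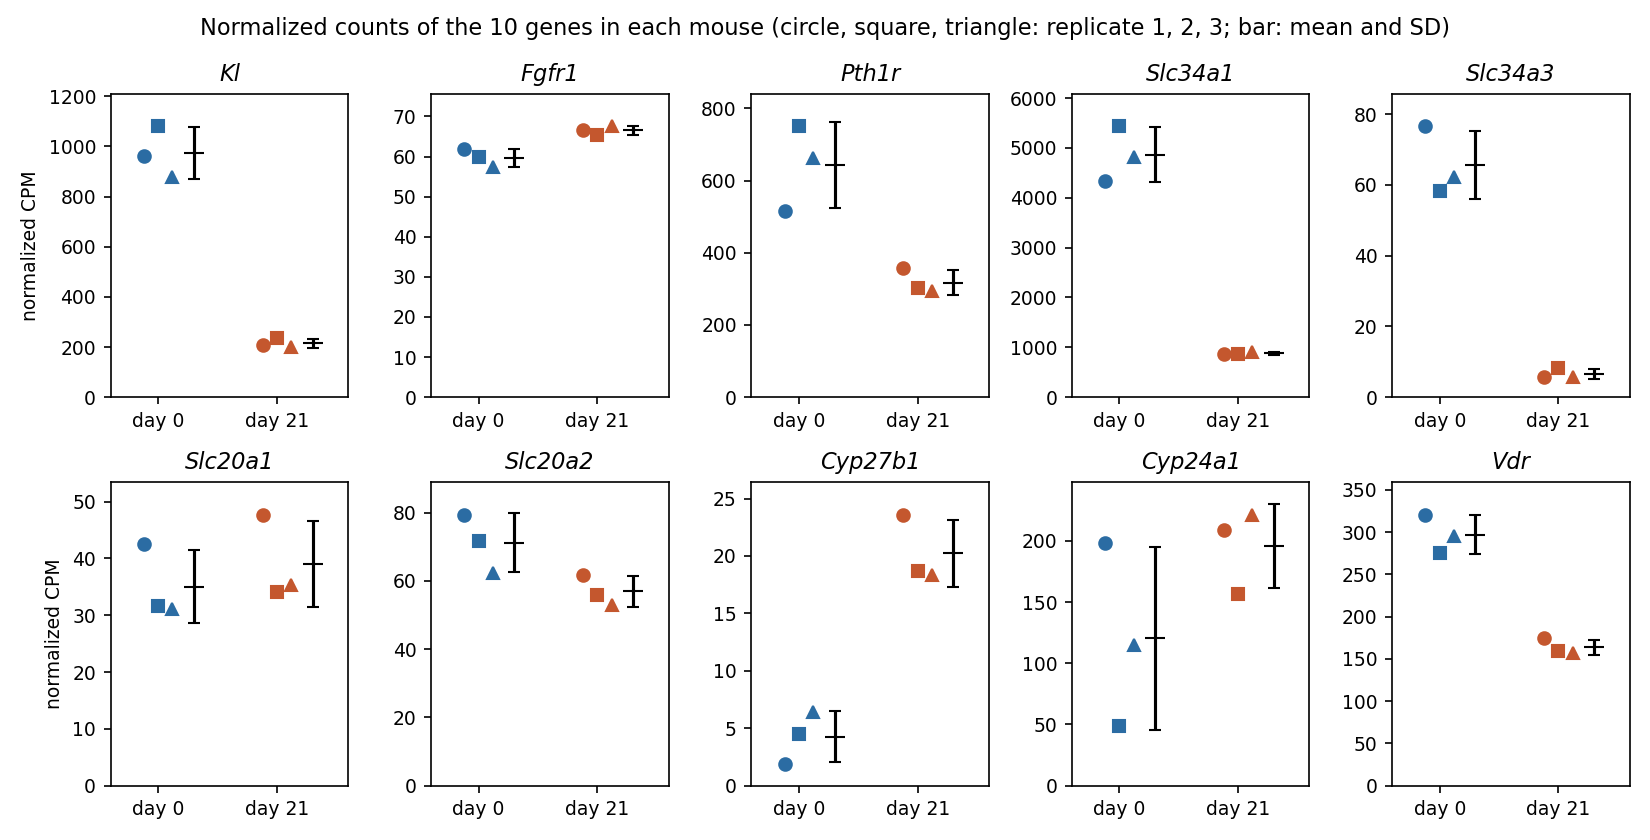
Normalized CPM (vertical axis, starting at 0) of the 10 genes in each mouse, with day 0 in blue and day 21 in orange, and the mean with its SD (n = 3) to the right of each group. Kl, Slc34a1 and Slc34a3 lie far lower in every day-21 mouse, Cyp27b1 lies higher in every day-21 mouse, and the groups of Cyp24a1 and Slc20a1 overlap.

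Of the receptor genes, Kl fell most. Kl (ENSMUSG00000058488.7, chromosome 5 of GRCm38 from 150952607 to 150993817) encodes the co-receptor that lets an FGF receptor bind FGF23, and in the kidney it is made mainly in the distal convoluted tubule and at lower levels in the proximal tubule. Its normalized counts were 961, 1081 and 877 CPM on day 0 and 208, 235 and 199.8 CPM on day 21. The lowest day-0 mouse stood far above the highest day-21 mouse. The mean fell from 973 ± 103 to 214 ± 18.2 CPM (SD, n = 3 each), a log2 fold change of -2.18 (standard error 0.13, 95% confidence interval -2.47 to -1.90, Benjamini-Hochberg adjusted p = 1.72e-06 in the quasi-likelihood test of edgeR). The level on day 0 was thus 4.54-fold that on day 21.

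Fgfr1 (ENSMUSG00000031565.18, chromosome 8 from 25513654 to 25575718), the receptor that klotho is best known to pair with, was not called. It had 61.9, 60.0 and 57.4 CPM on day 0 and 66.7, 65.4 and 67.6 CPM on day 21. Every day-21 mouse lay above every day-0 mouse, by a small margin. The log2 fold change was 0.16 with a 95% confidence interval of -0.06 to 0.37 (adjusted p = 0.221, edgeR), and under library size alone it was 0.55.

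Pth1r (ENSMUSG00000032492.14, chromosome 9 from 110722085 to 110747145), the receptor for PTH, is found in the proximal tubule and in podocytes. Counts of 515, 751 and 662 CPM on day 0 stood against 357, 302 and 293 CPM on day 21. The groups did not overlap, and the spread on day 0 was the wider, at 642 ± 119 CPM against 317 ± 34.3 CPM (SD, n = 3 each). The log2 fold change of Pth1r was -1.02 (standard error 0.15, 95% confidence interval -1.36 to -0.68, adjusted p = 3.90e-04, edgeR).

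Among the 4 phosphate transporter genes, Slc34a1 and Slc34a3, of type II, fell and the type III genes were not called. Slc34a1 (ENSMUSG00000021490.11, chromosome 13 from 55398187 to 55415592) encodes NaPi-IIa, the main phosphate transporter of the mouse proximal tubule brush border. Its counts were 4339.5, 5438 and 4808 CPM on day 0 and 872, 857 and 908 CPM on day 21. The day-21 mice lay close together, with an SD of 26.6 CPM. The log2 fold change was -2.47 (standard error 0.13, 95% confidence interval -2.77 to -2.17, adjusted p = 1.23e-06, edgeR), so that the day-0 level was 5.53-fold the day-21 level. Of its exon bases, 11.7% lie inside Pfn3 on the other strand.

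Slc34a3 (ENSMUSG00000006469.13, chromosome 2 from 25228898 to 25234364) encodes NaPi-IIc, the other type II transporter of that brush border. Its counts were 76.6, 58.4 and 62.1 CPM on day 0 and 5.58, 8.17 and 5.70 CPM on day 21. The lowest day-0 mouse was several times the highest day-21 mouse. The log2 fold change was -3.33 (standard error 0.18, 95% confidence interval -3.74 to -2.93, adjusted p = 1.25e-06, edgeR), the lowest of the 10 genes, and its interval lay apart from that of Slc34a1.

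The type III transporters are widely expressed, and SLC20A2 (PiT-2) is also present in the brush border. Slc20a1 (ENSMUSG00000027397.14, chromosome 2 from 129198764 to 129211616), which encodes PiT-1, had 42.5, 31.6 and 31.0 CPM on day 0 and 47.7, 34.0 and 35.3 CPM on day 21. In both groups replicate 1 was the highest mouse, and the groups overlapped. The log2 fold change was 0.155 (95% confidence interval -0.23 to 0.54, adjusted p = 0.493, edgeR), and it was -0.01 without day-21 replicate 1.

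Slc20a2 (ENSMUSG00000037656.9, chromosome 8 from 22476788 to 22569612) had 79.4, 71.7 and 62.2 CPM on day 0 and 61.8, 55.9 and 53.0 CPM on day 21. The groups were apart only narrowly, between 62.2 and 61.8 CPM. With a log2 fold change of -0.32 (95% confidence interval -0.59 to -0.05, adjusted p = 0.0518, edgeR) the gene was not called, and its sign turned with library size alone, at 0.07.

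**Figure D2:**
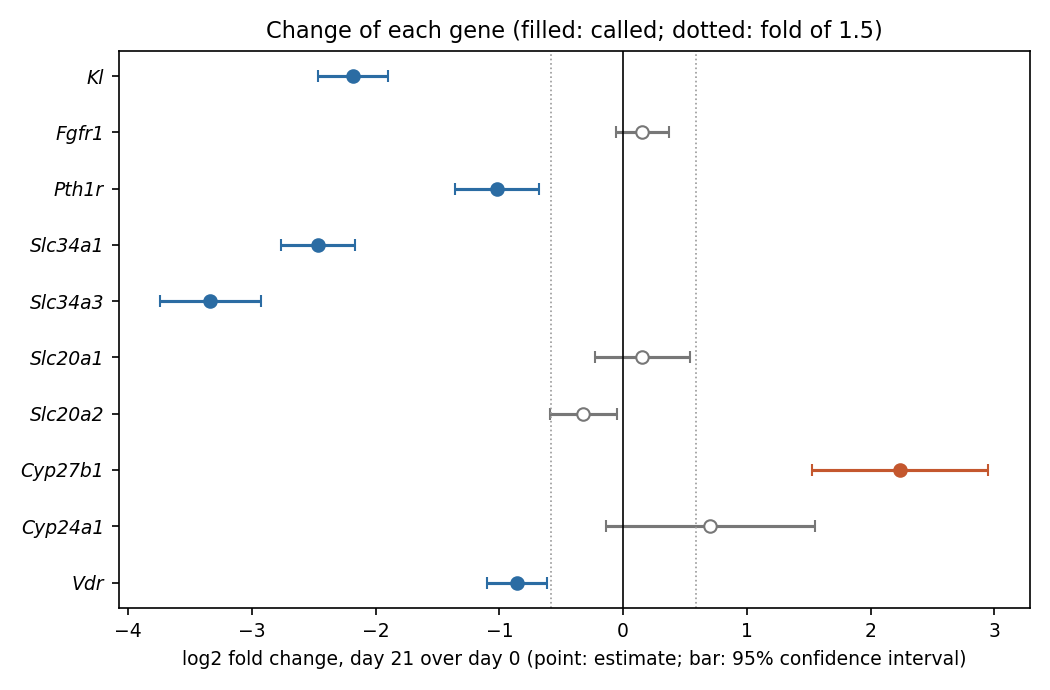
Log2 fold change of each gene, day 21 over day 0 (horizontal axis), as the edgeR estimate with its 95% confidence interval; filled points were called, blue lower and orange higher, and dotted lines mark a fold of 1.5. Slc34a3 has the lowest value at -3.33 and Cyp27b1 the highest at 2.24, and the intervals of Fgfr1, Slc20a1 and Cyp24a1 cross 0.

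Set against exon length, Slc34a1 mRNA made up 95.7% ± 1.00 (SD, n = 3) of the summed CPM per kilobase of the 4 transporter genes on day 0 and 90.9% ± 0.947 on day 21. The share of Slc34a3 went from 2.61% ± 0.642 to 1.33% ± 0.333, and that of Slc20a1 and Slc20a2 together from 1.65% ± 0.369 to 7.81% ± 0.987. In none of these shares did the mice of the 2 days overlap. The summed level fell from 1085 ± 113 to 207 ± 4.92 CPM per kilobase. Within each mouse, the ratio of Slc34a1 to Slc34a3 per kilobase was 28.6, 47.0 and 39.0 on day 0 and 78.8, 52.9 and 80.4 on day 21. Slc34a3 had thus lost more of its level than Slc34a1 in every day-21 mouse. These ratios and shares are descriptions with no test.

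The remaining type II gene, Slc34a2, encodes NaPi-IIb, the phosphate transporter best known from intestine and lung. It was taken from the list of other genes of the axis. Slc34a2 (chromosome 5 from 53038081 to 53071664) had 3.61, 5.52 and 2.89 CPM on day 0 and 70.1, 81.2 and 67.8 CPM on day 21. It rose with a log2 fold change of 4.16 (adjusted p = 9.88e-07, edgeR, standard error 0.21), a 17.9-fold difference. Per kilobase of exon, the ratio of Slc34a2 to Slc34a3 was 0.0222, 0.0445 and 0.0218 on day 0 and 5.90, 4.67 and 5.599 on day 21, so that Slc34a3 was the higher of the pair in every day-0 mouse and Slc34a2 in every day-21 mouse. As the fifth transporter it made up 6.58% ± 0.749 of the summed level on day 21 (0.0728% ± 0.0188 on day 0).

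**Figure D3:**
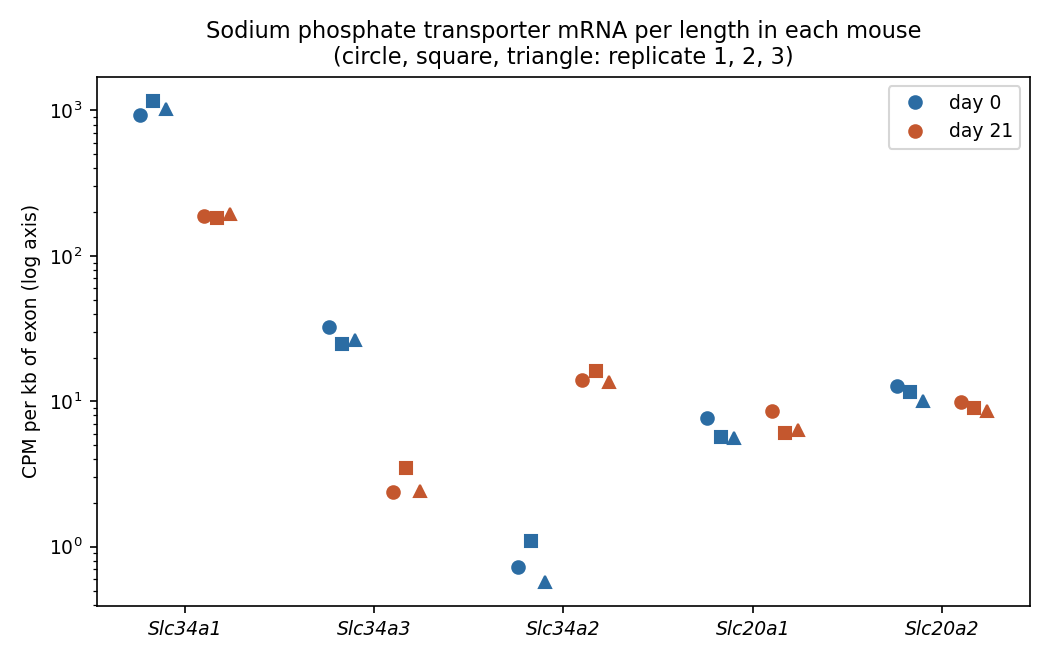
CPM per kilobase of exon (vertical log axis) of 5 sodium phosphate transporter genes in each mouse, day 0 in blue and day 21 in orange. Slc34a1 stays the highest of the 5 in every mouse, Slc34a3 drops below all others on day 21, and Slc34a2 goes from the lowest to above Slc34a3, Slc20a1 and Slc20a2.

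Of the vitamin D enzyme genes, Cyp27b1 was called and Cyp24a1 was not. Cyp27b1 (ENSMUSG00000006724.12, chromosome 10 from 127048250 to 127053006), which makes calcitriol, was the only member called higher in the edgeR fit. Its counts were 1.91, 4.53 and 6.39 CPM on day 0, from 19, 55 and 62 reads, and 23.6, 18.7 and 18.4 CPM on day 21, from 334, 313 and 300 reads. The lowest day-21 mouse stood well above the highest day-0 mouse. The log2 fold change was 2.24 (standard error 0.32, 95% confidence interval 1.53 to 2.95, adjusted p = 2.93e-04, edgeR), a 4.72-fold difference, and it ran from 1.88 to 2.59 as each mouse was left out.

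Cyp24a1 (ENSMUSG00000038567.5, chromosome 2 from 170482708 to 170497145), which inactivates calcitriol, varied widely on day 0. Its counts were 198, 48.4 and 115 CPM on day 0 and 209, 157 and 221 CPM on day 21. Day-0 replicate 1 lay inside the day-21 range, and the same mouse had the lowest Cyp27b1 of all. The mean was 120.4 ± 74.9 CPM on day 0 and 196 ± 34.5 CPM on day 21 (SD, n = 3 each). With a log2 fold change of 0.70 and a 95% confidence interval of -0.14 to 1.55 (adjusted p = 0.157, edgeR) Cyp24a1 was not called, and a difference of up to 1.55 is within that interval. Without day-0 replicate 1 it was called, at a log2 fold change of 1.25 (adjusted p = 0.00594, edgeR, where alternatives for this gene ran from 1.66e-06, in the fit with no filter, to 0.339). Without day-0 replicate 2, the lowest mouse, it was 0.32 (adjusted p = 0.303, edgeR). Day-0 replicate 1 also had 143 CPM of Gc, the vitamin D binding protein gene, against 43.0 and 30.7 CPM in day-0 replicates 2 and 3. In the same mouse Krt20 was at 16.0 CPM, against 0.247 and 0.515 CPM in those 2 mice. The part of Gc and Krt20 in the result was not tested.

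Within each mouse, the ratio of Cyp24a1 to Cyp27b1 per kilobase of exon was 75.1, 7.72 and 13.0 on day 0 and 6.40, 6.06 and 8.71 on day 21. The highest value belonged to day-0 replicate 1, and the groups overlapped.

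Vdr (ENSMUSG00000022479.15, chromosome 15 from 97854425 to 97910630) encodes the nuclear receptor through which calcitriol acts. Its counts were 321, 275 and 295 CPM on day 0 and 174, 160 and 157 CPM on day 21. The groups were well apart, with little spread in either. Vdr fell, at a log2 fold change of -0.86 (standard error 0.11, 95% confidence interval -1.10 to -0.62, adjusted p = 1.32e-04, edgeR). Under library size alone it was -0.47, which is below the fold of 1.5, so that the call was lost.

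By level per kilobase of exon on day 0, the order was Slc34a1 (1039.8 ± 118, SD, n = 3), Pth1r (219.7 ± 40.8), Kl (104 ± 10.99), Vdr (52.5 ± 4.07), Cyp24a1 (33.8 ± 21.0), Slc34a3 (27.9 ± 4.08), Slc20a2 (11.4 ± 1.38), Slc20a1 (6.28 ± 1.16), Fgfr1 (6.05 ± 0.227) and Cyp27b1 (1.66 ± 0.875). Cyp24a1 could not be told from Vdr or Slc34a3, nor Slc20a1 from Fgfr1, since their mice overlapped. On day 21 Slc34a1 (188 ± 5.68) and Pth1r (109 ± 11.7) were still the highest. Cyp24a1 came next (55.0 ± 9.68), above Vdr (29.0 ± 1.59) and Kl (23.0 ± 1.95), with no overlap among these. Then came Slc20a2 (9.15 ± 0.721), Cyp27b1 (7.86 ± 1.14), Slc20a1 (6.99 ± 1.35) and Fgfr1 (6.74 ± 0.114), each of which overlapped with the next, and Slc34a3 was last (2.75 ± 0.620).

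Several of these genes are expressed in the proximal tubule, whose 12 markers had a median log2 change of -1.92. Each gene was therefore set against those markers within each mouse, as its log2 CPM centred on the 6 mice minus the median of the markers centred the same way. Relative to the markers, Kl changed by -0.26 ± 0.33 (combined SD of the 3 and 3 mice), and its groups overlapped. Kl is also a gene of the distal convoluted tubule, whose marker Slc12a3 had 775, 647 and 465 CPM on day 0 and 298, 349.5 and 275 CPM on day 21 (log2 fold change -1.03, beside -2.18 for Kl). Another marker of that segment, Pvalb, went from 214, 317 and 122 reads on day 0 to 0, 0 and 1 on day 21. Not all 5 markers of the distal convoluted and connecting tubule fell as far. Trpv5 was called higher (1.74), Calb1 was lower (-1.13), and Slc8a1 was lower at -0.63, a call lost in 6 of 16 alternatives. Which segment the change of Kl belongs to cannot be told apart in whole kidney. Against the proximal tubule markers, Slc34a1 changed by -0.54 ± 0.20 and Slc34a3 by -1.44 ± 0.61, both with groups apart. In contrast, Vdr (1.06 ± 0.30) and Pth1r (0.91 ± 0.21), which were lower in normalized CPM, were higher relative to the markers in every day-21 mouse. The markers themselves changed by -1.92, while the median over all genes tested was 0.03. A gene with unchanged CPM therefore also lies higher on this scale, and a higher position alone is not particular to these genes. Fgfr1 stood at 2.07 ± 0.26, Slc20a1 at 2.07 ± 0.39, Slc20a2 at 1.599 ± 0.31, Cyp24a1 at 2.82 ± 1.17 and Cyp27b1 at 4.32 ± 0.84. These are descriptions with no test, and the part of the lower marker levels in the changes was not tested.

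**Figure D4:**
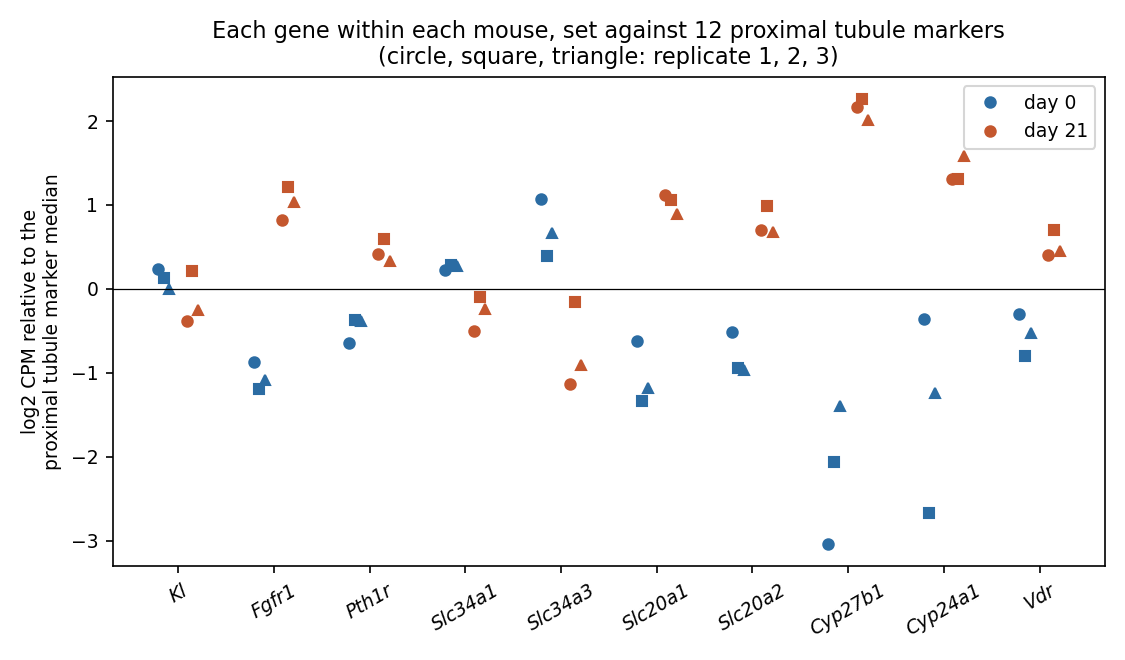
Log2 CPM of each gene relative to the median of 12 proximal tubule markers within the same mouse (vertical axis, each gene centred on the 6 mice), day 0 in blue and day 21 in orange. Only the groups of Kl overlap. Slc34a1 and Slc34a3 lie lower on day 21, and the other 7 genes lie higher, as would a gene with unchanged CPM, because the markers fell.

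The genes with the pattern most like that of 3 members were taken by the smallest root mean square difference of centred log2 CPM over the 6 mice, among 13142 genes with a mean of at least 50 counts. Among those nearest to Kl were Ttc36 (0.0994), Rnf24 (0.102), Slc39a5 (0.113) and Cndp1 (0.114). For Slc34a1 they were Pecr (0.0755), F13b (0.111), Dnajc12 (0.113), Upb1 (0.113) and Retsat (0.116). The nearest to Cyp24a1 were Mmp19 (0.198), Pvr (0.230), Zfp449 (0.244), Flrt2 (0.256) and Samd4 (0.265), which were farther off. The profiles run over both days, so the likeness includes the difference between the days.

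Other genes of the axis were taken as a list of 81, of which 73 were tested. In this list 20 genes (27.4% of those tested) were called higher and 21 (28.8%) lower, beside 19.6% and 15.5% of all genes, with a median log2 fold change of -0.12. The same shares of all genes stand beside the counts of each list below. With library size alone the split over the 73 tested genes was 23 higher and 11 lower. Cldn14 and Pth2r, both called higher, reached the count minimum of the filter in the day-21 mice only, so that they could be tested only because they were high there; the other 71 genes gave 18 higher and 21 lower.

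The hormones themselves are made elsewhere. Fgf23 had 0 counts in every mouse but day-21 replicate 1, which had 3, and Pth had 0 counts in all 6 mice, so neither exceeded 3 counts in any library. Of 13 hormone and bone-side genes 7 were tested, with 2 called higher, 1 lower and a median of -0.23. Stc2, which encodes a stanniocalcin, a secreted glycoprotein, rose (log2 fold change 1.68), as did Sfrp4, a secreted Wnt inhibitor that acts on phosphate excretion (1.18). Sfrp4 lost its call in 4 of the 6 fits that left out a mouse, with log2 fold changes between 0.85 and 1.58 over its alternatives. Casr, the calcium-sensing receptor of the thick ascending limb and parathyroid, fell (-1.27).

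Among 9 tested genes of the klotho family, its sheddases and the FGF receptors, 2 were higher and 2 were lower, with a median of 0.14. Fgfr2 rose (0.89), and Fgfr3 (-0.79) and Fgfr4 (-0.86) fell, although both lost the call with library size alone. Adam10, a protease that can shed klotho from the membrane, was called higher (0.61), a call lost with RLE scaling, with DESeq2 and without day-0 replicate 2. Klb, the klotho relative of liver and fat, had no more than 3 counts in any of the 6 mice.

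Of 10 genes known to respond to FGF receptor signalling, 5 were called higher and the other 5 were not called, with a median of 0.43. Etv4, an ETS transcription factor, rose most (2.67), followed by the immediate early gene Egr1 (1.80) and the feedback inhibitors Spry2 (0.94) and Il17rd (0.88). Dusp6 (-0.23), Spry4 (-0.06) and Etv5 (-0.06), also such targets, were not called. These genes respond to many growth factors besides FGF23.

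The phosphate export and brush border scaffold list had 10 genes tested, with 2 higher, 5 lower and a median of -0.62. Besides Slc34a2, described above, the scaffold genes Pdzk1 (-1.38) and Slc9a3r1 (-0.72), whose products hold NaPi-IIa in the brush border, were lower, and the call of the latter was lost with library size alone, at an unchanged sign. Xpr1, the phosphate exporter, fell (-1.07), and so did Slc37a4, which carries glucose 6-phosphate into the endoplasmic reticulum (-1.96).

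In the vitamin D list, 15 of 16 genes were tested, with 1 higher, 9 lower and a median of -0.62. Of all genes tested, 19.6% were higher and 15.5% lower. The endocytic receptor genes Lrp2 (megalin, -2.37) and Cubn (cubilin, -1.89), which take up filtered vitamin D bound to its carrier, were lower. Both are also among the proximal tubule markers used above. Fdx1, the ferredoxin that passes electrons to CYP27B1 and CYP24A1, fell (-1.15), as did Rxra (-0.82), the partner of the vitamin D receptor. The call of Rxra was lost with library size alone, as were the lower calls of Amn, Dab2, Ncoa1 and Ncor1. Dab2 and Ncor1 lost theirs in 4 of 16 alternatives each, and Ncoa1 in 5. Cyp27a1 (-0.63), a liver-type vitamin D hydroxylase, was called lower but lost the call with upper quartile scaling, with library size alone and without day-0 replicate 3. Cyp2r1, the main vitamin D hydroxylase of liver, was not called (0.59, from 6 to 28 counts per mouse). The carrier gene Gc rose (1.69), with 143, 43.0 and 30.7 CPM on day 0 and 239.7, 236 and 224 CPM on day 21, a call lost without day-0 replicate 2. Without day-0 replicate 1 its log2 fold change was the highest of its alternatives, at 2.63.

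The calcium transport genes that vitamin D and PTH regulate moved in both directions, with 5 higher and 3 lower of 10 tested and a median of 0.35. Both apical calcium channel genes rose, Trpv5 from 31.4, 24.9 and 17.8 CPM to 78.7, 90.8 and 78.6 CPM (1.74) and Trpv6 from 4.31, 3.54 and 2.68 CPM to 13.1, 17.6 and 14.8 CPM (2.11). The cytosolic calcium carriers of the same cells fell. Calb1 went from 572, 556 and 325 CPM to 181, 283 and 199 CPM (-1.13), and S100g from 375, 533 and 183 CPM to 68.5, 98.8 and 63.8 CPM (-2.24). Neither pair of groups overlapped. Cldn14, a claudin that restrains calcium reabsorption and 1 of the 5 called higher, had 5, 6 and 6 counts on day 0 against 22, 20 and 17 on day 21, and its call was lost in 10 of 15 alternatives.

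In the PTH receptor signalling list, 3 of 12 genes were higher and 1 was lower, with a median of -0.05. Arrb2, an arrestin that binds activated receptors, rose (1.71), and Ramp2, a partner of several such receptors, rose (0.93), while the cAMP phosphodiesterase gene Pde4d fell (-0.99). Pth2r, the second PTH receptor, is 1 of the 3 called higher and rests on few reads, with counts of 0, 0 and 1 on day 0 against 15, 16 and 24 on day 21, and no fold is given for it. The G protein gene Gnas (-0.18) and the kinase genes Prkaca (-0.05) and Prkar1a (-0.02) were not called.

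**Figure D5:**
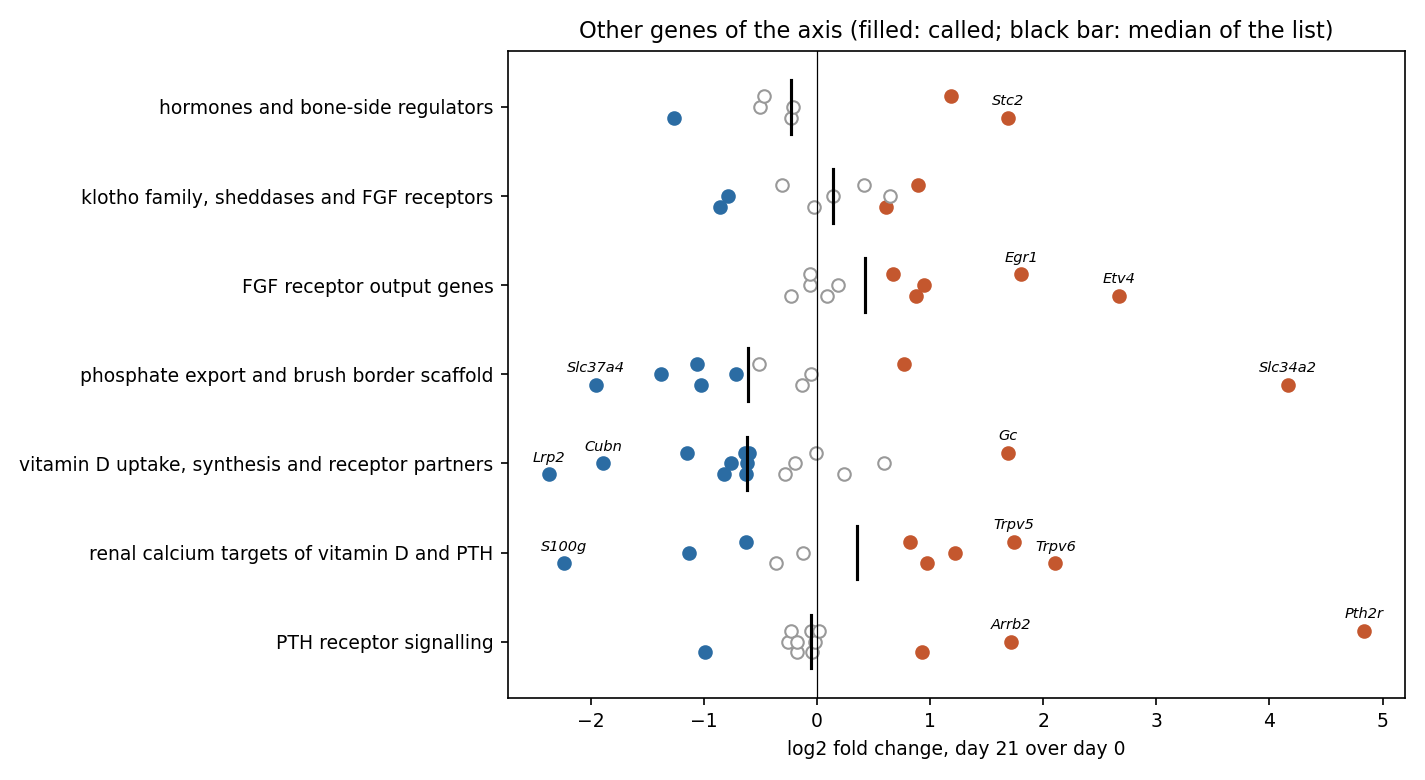
Log2 fold change, day 21 over day 0 (horizontal axis), of the 73 tested genes in the 7 lists of other axis genes; filled points were called, blue lower and orange higher, open points were not called, and the black bar is the median of each list. Slc34a2 and Pth2r lie farthest to the right, the latter at a fitted value that rests on 1 read on day 0, and Lrp2 and S100g lie farthest to the left.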

How the data were processed

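Kidney mRNA of 3 day-0 and 3 day-21 mice was measured. The authors sequenced paired-end reads, aligned them and deposited raw counts per gene, with each mouse kept separate; the submitters' processing notes name TopHat and mm10, and the counting program and its strand setting are not given in the sources used here. Identifiers are those of GENCODE mouse release M21 (GRCm38), which supplied positions and exon lengths. All 6 columns were mapped by their labels.

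Low genes were removed by filterByExpr (min.count 10, min.total.count 15), and the rest were scaled by TMM and compared with edgeR 4.0.16 (quasi-likelihood test, Benjamini-Hochberg over 16592 genes) in R 4.3.3, with limma 3.58.1 and DESeq2 1.42.0 as alternatives. The main edgeR fit, DESeq2 and limma-voom were first tested on simulated data, and the other alternatives were not. Figures were made in Python 3.11.15. Exact permutation tests used log2(CPM + 0.5). No pair of mice of a group was a duplicate (chi-square per gene from 6.78 to 23.6). That the mice are separate animals is taken from the design text.

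The 10 genes and the lists were chosen with earlier results of these data known. All 10 are named. Of the other lists, up to 4 called genes with the largest change and a set of fixed genes are named. Dusp6, Spry4, Etv5, Gnas, Prkaca, Prkar1a, Krt20, Slc12a3, Pvalb, Pfn3, Pfdn4, 9830144P21Rik and Gm4430 are named after seeing their values. So are Amn, Dab2, Ncoa1, Ncor1 and Slc8a1. The list gene Ankh was matched as Ank, and 1 gene that the rule names is not reported here. Alternatives were other scalings, filters, tools and thresholds, a replicate block, each mouse left out, and libraries without mitochondrially encoded genes or the 20 highest genes.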

Additional observations from a re-analysis of the deposited data

How the results depend on the processing

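Of 159 log2 fold changes of the 10 genes recomputed under up to 16 alternatives each, 152 kept their direction and their side of the threshold, and for 6 genes (Kl, Fgfr1, Slc34a1, Slc34a3, Cyp27b1 and Pth1r) all did; Slc34a1 could not be fitted without the 20 highest genes, of which it is 1. The number of members called higher was 2 in place of 1 with library size alone, with no filter, with a replicate block and without day-0 replicate 1, and ran from 1 to 2 as each mouse was left out. The added gene was Cyp24a1, at 1.08 (adjusted p = 0.0359, edgeR) with library size alone, 0.72 (adjusted p = 1.66e-06, edgeR) with no filter and 0.90 (adjusted p = 0.0133, edgeR) with the replicate block, within a range of 1.66e-06 to 0.339. The fit with no filter gave far lower adjusted p for the called members too, such as 4.06e-51 for Kl against 1.72e-06 in the main fit (both edgeR). The cause was not tested. Mice of the 2 days share only a replicate number, since the deviations of same-numbered mice correlated at -0.0190, 0.165 and 0.0896 and not every mouse correlated best with its own number, and the block moved no other count of members. Scaling by library size alone turned Slc20a2 to 0.066, ended the call of Vdr and gave 11 axis genes lower in place of 21, and over all genes 5985 higher in place of 3249 and 1338 lower in place of 2572. Stricter limits, an adjusted p of 0.01 and a fold of 2, left 8 axis genes higher and 10 lower, and 1918 and 1254 of all genes. Leaving out a mouse moved Slc20a1 between -0.0128 and 0.29. With the longest transcript in place of all exon bases, the day-21 share of Slc34a1 among the 4 transporters was 87.8% and that of Slc20a2 6.35%. A pair of choices was added after seeing the data, the fifth transporter and markers that were not centred. Neither turned a direction, but some values moved. With the fifth transporter, the day-21 share of Slc34a1 was 84.9% in place of 90.9%. Relative to markers that were not centred, Slc34a1 changed by -0.32 in place of -0.54 and Kl by -0.04 in place of -0.26. Pth1r changed by 1.14 in place of 0.91. Depth limits Cyp27b1 on day 0, Pth2r, Fgf23 and Klb, which rest on few counts.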

Other observations

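Genes that share exon bases with a member on the other strand had counts of their own. Pfn3, which holds 11.7% of the exon bases of Slc34a1, was counted at 739, 1229 and 937 reads on day 0 against 399, 478 and 566 reads on day 21. Pfdn4, which holds 2.33% of those of Cyp24a1, was counted at 364, 168 and 237 reads on day 0 against 516, 466 and 581 reads on day 21. Day-0 replicate 2 was the lowest mouse for Pfdn4 and for Cyp24a1. For Slc20a1, 9830144P21Rik holds 8.1% of the exon bases and Gm4430 holds 5.02%. The former was counted at 103, 114 and 78 reads on day 0 against 164, 125 and 142 reads on day 21. The latter was counted at 57, 43 and 46 reads on day 0 against 66, 60 and 70 reads on day 21. Since the strand setting of the counting is not given, reads of such a pair may not have been told apart, and this was not tested.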
